A study of Mus musculus with 24 samples.

Results

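The genes described here encode the nuclear subunits of the mitochondrial respiratory chain and of ATP synthase. They were chosen by gene name alone: the scanner files' name had to begin with Nduf, Uqcr, Cox4, Cox5, Cox6, Cox7, Cox8 or Atp5, or to be one of the Sdh subunit genes. This took in 90 of the 34797 gene names on the array, carried by 134 of its 55681 probes. Of the 90 genes, 88 passed a detection filter, and Cox7b2 and Cox8c, both carried by 1 probe, were not well above background on any of the 24 arrays. The 88 genes comprised 38 named for complex I, 4 of complex II, 8 of complex III, 16 of complex IV and 15 of ATP synthase. The remaining 7 (Ndufaf1, Ndufaf2, Ndufaf3, Ndufaf4, Cox4nb, Atp5s and Atp5sl) match by name but are not structural subunits, and the first 4 of them are complex I assembly factors.

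Electrons from NADH enter the chain at complex I and those from succinate at complex II. They pass through complex III, the cytochrome bc1 complex, to complex IV, cytochrome c oxidase, and the proton gradient built on the way drives ATP synthase, also called complex V. In the pancreatic beta cell, ATP made this way closes potassium channels at the cell surface and so links glucose metabolism to insulin release. Most subunits are encoded in the nucleus and a small set in the mitochondrial genome. Complex IV holds subunits with tissue isoforms: Cox6a1, Cox7a2 and Cox8a are the widespread forms, and Cox6a2, Cox7a1 and Cox8b are the forms known from heart and skeletal muscle.

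Expression was measured in islets of 24 male mice, 1 single-colour Agilent array per mouse. The strains were C57BL6/J (BL6) and C57BLKs/J (BLKS), entered at 8 weeks of age. Each strain had 3 groups of 4 mice: chow with 18% of its energy as fat, a high-fat diet with 42%, and that high-fat diet containing pioglitazone at 140 mg per kg of diet. Pioglitazone activates the nuclear receptor PPAR-gamma. The labels of the samples state 12 weeks of feeding and the text of the design 16, a conflict the labels do not settle. No transgene or deletion is named in the labels for any group. Whole islets were used, so fewer cells of a type and less RNA per cell cannot be told apart. All values below are log2 processed intensity relative to the 75th percentile of the array, abbreviated as the log2 level, and p-values measure the spread between these mice.

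Between arrays, that percentile ranged from 217.9 to 403.3 intensity units, and 87 of the 88 genes were well above background on all 24 arrays. The exception was Cox8b, at 8 arrays. The gene Nnt is known to carry a deletion in C57BL6/J and codes for a transhydrogenase of mitochondria. It had log2 levels of 2.05 to 2.71 in BL6 and of 3.48 to 3.97 in BLKS. Sets of arrays stood apart in markers of other cells: 8 of 24 had a lymphocyte marker score over 1 log2 unit above the median and 4 an acinar marker score over 1.5 above it. Both kinds occurred in both strains. The acinar score also had low values: it ran from 0.15 to 7.83 in BL6 and from -2.59 to 8.00 in BLKS. Both lowest values were of mice on chow. Within a diet the strains were on different slides, and only BLKS on chow and BL6 on the high-fat diet with pioglitazone shared slides (2 and 4), so the strain and the slide cannot be told apart in the comparisons at equal diet. Slide 1 held BL6 on chow and on the high-fat diet, and slide 3 BLKS on the high-fat diet without and with pioglitazone. Diet in BLKS, pioglitazone in BL6 and both tests of a differing response therefore cannot be told apart from slide either.

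The 60-base probe sequences below belong to the 9 genes whose log2 level differed between the strains by more than 0.5. They are shown because each strain difference is read by a single probe, the brightest of its gene, and what that probe matches decides what was measured. Positions are on mm9, as the files give them, and the letters are copied from the files. The Cox7a1 probe lies on the plus strand at chr7:30970337-30970948, a span longer than the probe. The Ndufa4 probe is on the minus strand at chr6:11850423-11850482, Ndufab1 on the minus strand at chr7:129231667-129231726, and Ndufa4l2 on the plus strand at chr10:126954149-126954208. Ndufa3 is on the plus strand at chr7:3571695-3571754, Atp5e on the minus strand at chr2:174286656-174286715 and Ndufaf4 on the plus strand at chr4:24829194-24829253. Cox6a2 and Cox8b are on the minus strand at chr7:135349160-135349219 and chr7:148084852-148084911.
Cox7a1: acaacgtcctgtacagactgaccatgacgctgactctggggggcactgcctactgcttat
Ndufa4: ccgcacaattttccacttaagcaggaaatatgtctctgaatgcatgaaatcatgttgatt
Ndufab1: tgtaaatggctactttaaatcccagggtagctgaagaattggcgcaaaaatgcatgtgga
Ndufa4l2: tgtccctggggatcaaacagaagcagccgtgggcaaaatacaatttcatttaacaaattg
Ndufa3: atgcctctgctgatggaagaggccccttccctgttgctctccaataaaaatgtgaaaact
Atp5e: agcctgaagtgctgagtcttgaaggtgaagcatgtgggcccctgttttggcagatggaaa
Ndufaf4: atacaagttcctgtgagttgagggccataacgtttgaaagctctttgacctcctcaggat
Cox6a2: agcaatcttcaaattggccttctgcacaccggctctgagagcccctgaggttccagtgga
Cox8b: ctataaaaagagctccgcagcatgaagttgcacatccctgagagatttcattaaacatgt

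For Ndufa3 and Ndufaf4 other kept probes of the same gene went the opposite way, so those probes are shown too. The second Ndufa3 probe, on the plus strand at chr7:3569447-3569506, was higher in BLKS by 1.2 ± 0.10 (SE, adjusted p = 1.8e-09). The third, on the plus strand at chr7:3571590-3571649 and nearer to the brightest one, was lower by a log2 difference of -0.61 ± 0.05 (adjusted p = 1e-09). The second Ndufaf4 probe, on the plus strand at chr4:24830284-24830343, gave a log2 difference of -0.43 ± 0.07 (adjusted p = 1.3e-05), whereas the brightest Ndufaf4 probe was higher in BLKS. The direction for Ndufa3 and for Ndufaf4 is therefore that of the probe named, and not settled for the gene.
Ndufa3 probe 2: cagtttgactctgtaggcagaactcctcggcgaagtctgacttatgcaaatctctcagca
Ndufa3 probe 3: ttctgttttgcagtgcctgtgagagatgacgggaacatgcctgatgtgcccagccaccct
Ndufaf4 probe 2: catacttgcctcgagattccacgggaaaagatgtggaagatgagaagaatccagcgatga

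The comparison of the strains, averaged over the 3 diets, asked how BLKS islets differ from BL6 islets in these subunits. Read by the brightest probe, 24 of the 38 genes named for complex I were lower in BLKS and 0 higher, 4 of them by more than 0.5. Complex III was mixed, with 2 genes higher and 2 lower. Complex IV (3 higher, 6 lower) and ATP synthase (1 higher, 6 lower) also had more genes lower, and complex II had a single small difference. Of the 88 genes, 49 passed an adjusted p of 0.05, 8 higher and 41 lower in BLKS. That is 55.7%, against 64.7% of all 22968 genes tested, of which 30.1% were higher and 34.6% lower. In this fit a strain difference as such was thus no more frequent here than in the genome at large. After quantile normalization it was more frequent, with 66 of the 88 genes called against 66.1% of all genes. How the count stands to that of all genes therefore depends on the scaling. The median log2 difference of the 88 genes was -0.12, beside -0.05 over all genes. Differences were also small: 9 of the 88 genes (10.2%) were called with a size over 0.5, against 34.8% of all genes. Cox8b, among the 8 higher genes and the 9 large ones, counts at its measured difference although its BL6 level is only a bound. It passed the detection filter through its BLKS arrays alone, so its count as higher is not independent of that filter. Cox5b, at -0.50 ± 0.05, lay just outside that limit and Atp5e, at -0.57, just inside it. Among mice of a group the median SD of these genes was 0.15 (range 0.08 to 0.66), compared with 0.21 over all genes. The comparison was not matched for intensity: 87 of the 88 genes were well above background on all 24 arrays, while the filter asked for 4.

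**Figure D1:**
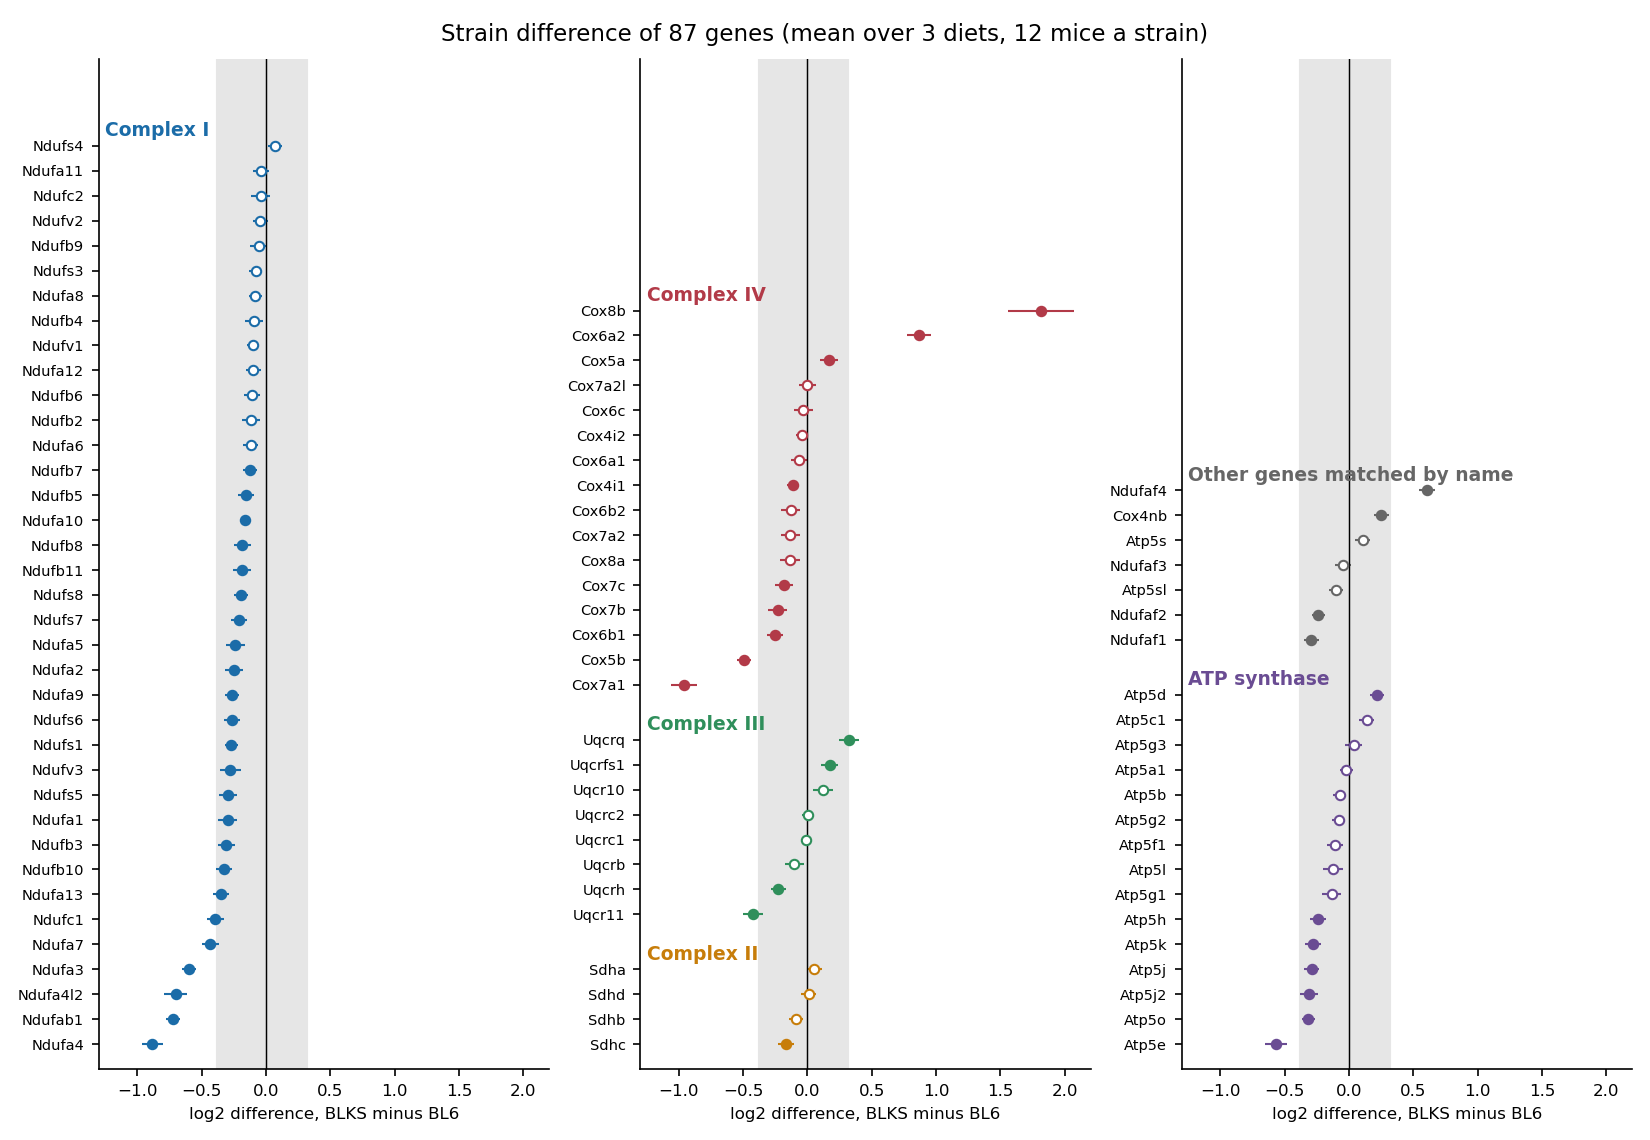
Log2 difference between the strains (BLKS minus BL6, mean over 3 diets, 12 mice a strain) for 87 of the 88 genes, ordered by size within each complex. Points are limma estimates for the brightest probe of a gene, bars their SE, and filled points passed an adjusted p of 0.05. The grey band spans the middle 50% of all genes. In complex I all 24 filled points lie left of 0, though dimmer probes of Ndufa3 and Ndufv3, not drawn, went the other way. The gene left out is one not reported here, and Cox8b is drawn at its measured difference although it was not well above background in BL6.

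The complex I calls made up 63.2% of the 38 genes, near the share of all genes called. Their direction on the brightest probes was one-sided, the median log2 difference over the 38 was -0.19, and 37 of the 38 estimates were negative. Ndufa3 and Ndufv3, both called as lower, each had a dimmer probe that passed as higher by limma. These probes were at 1.2 ± 0.10 (adjusted p = 1.8e-09) and 0.47 ± 0.08 (adjusted p = 3.3e-05). Among the 7 nuclear core subunits, which carry the redox centres and the substrate sites, 3 passed. Ndufs1, the largest iron-sulfur subunit, differed by -0.27 ± 0.05 (adjusted p = 6.2e-05), and Ndufs7 and Ndufs8, which hold iron-sulfur clusters, by -0.21 and -0.19. Ndufv1, which binds the flavin and NADH, was at -0.10 (adjusted p = 0.07) and did not pass. Of the 29 accessory subunits, which surround the core, 19 passed, and the largest differences among them after Ndufab1 and Ndufa3 were those of Ndufa7 (-0.43), Ndufc1 (-0.40), Ndufa13 (-0.35) and Ndufb10 (-0.33).

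Ndufab1 encodes the mitochondrial acyl carrier protein, which serves fatty acid synthesis in the mitochondrion as well as complex I. Its log2 level was -0.20 at the lowest, -0.07 at the median and 0.11 at the highest of the 12 BL6 arrays. In BLKS the corresponding values were -1.04, -0.75 and -0.61. The 2 strains did not overlap, and the difference was -0.72 ± 0.05 (1.65-fold lower, adjusted p = 1.9e-10). It was -0.69 on chow, -0.72 on the high-fat diet and -0.76 with pioglitazone.

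Ndufa4 was first described as a complex I subunit and is now assigned to complex IV, and Ndufa4l2 is its paralog, known to respond to hypoxia. Ndufa4 ranged from 4.48 to 5.11 in BL6, with a median of 4.65, and from 3.51 to 4.18 in BLKS, with a median of 3.79. No BLKS array reached the lowest BL6 array, and the difference was -0.88 ± 0.08 (1.85-fold lower, adjusted p = 5.2e-09). Ndufa4l2 ran from -0.31 to 0.66 in BL6, with a median of 0.33, and from -0.79 to 0.24 in BLKS, with a median of -0.48. Here the strains overlapped, since 4 BLKS mice lay above the lowest BL6 mouse and 3 BL6 mice below the highest BLKS mouse. The Ndufa4l2 difference was -0.70 ± 0.09 (adjusted p = 7.8e-07), and by diet it was -0.48 on chow, -1.01 on the high-fat diet and -0.61 with pioglitazone.

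Ndufa3, a small accessory subunit, lay between 4.98 and 5.55 in BL6 and between 4.49 and 4.8 in BLKS on its brightest probe. These values did not overlap and differed by -0.60 ± 0.05 (adjusted p = 3.9e-09), with the contrary probe described above. Ndufaf4, the assembly factor, ran the other way on its brightest probe, from 1.85 to 2.38 in BL6 and from 2.40 to 3.02 in BLKS, and its second probe was lower in BLKS. The brightest-probe difference of Ndufaf4 was 0.60 ± 0.06 (adjusted p = 4.7e-08). Ndufaf1 and Ndufaf2, which also act in complex I assembly, were lower at -0.29 and -0.24.

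Complex II, which is also an enzyme of the citrate cycle, showed 1 call among 4 genes. Sdhc, one of its membrane anchors, was lower at -0.16 ± 0.06 (adjusted p = 0.027). The flavoprotein Sdha was at 0.05, the iron-sulfur subunit Sdhb at -0.09 and the anchor Sdhd at 0.0088, and none of these passed. In complex III, 4 of 8 genes passed, 2 in each direction. Uqcr11 (-0.42) and Uqcrh (-0.23), small subunits of the complex, were lower. Uqcrq, another small subunit (0.33), and Uqcrfs1, the Rieske iron-sulfur protein (0.17), were higher. The core proteins Uqcrc1 and Uqcrc2 were at -0.0078 and 0.0042 and did not pass.

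In complex IV, 9 of 16 genes passed, 3 higher and 6 lower in BLKS, and the muscle-type isoforms gave the widest differences in both directions. Cox7a1 had log2 levels from -0.28 to 0.62 in BL6, with a median of 0.21. In BLKS it ran from -1.06 to -0.23, with a median of -0.84. A single BLKS mouse on chow, at -0.23, lay above the lowest BL6 mouse, and the difference was -0.96 ± 0.10 (1.94-fold lower, adjusted p = 4.1e-08). Its widespread counterpart Cox7a2 was at -0.13 ± 0.07 and did not pass (adjusted p = 0.11).

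Cox6a2 ran from 5.42 to 6.46 in BL6, with a median of 6.06, and from 6.54 to 7.14 in BLKS, with a median of 7.01. The strains did not overlap, and Cox6a2 was higher in BLKS by 0.87 ± 0.09 (1.82-fold, adjusted p = 6.4e-08). By diet the difference was 1.14 on chow, 0.58 on the high-fat diet and 0.88 with pioglitazone. Cox6a1, the widespread form, was at -0.06 and did not pass (adjusted p = 0.40). Cox8b was not well above background on any BL6 array, and was so on 4 BLKS arrays on chow, 2 on the high-fat diet and 2 with pioglitazone. BLKS, where it is higher, alone carried it through the detection filter. Its log2 level was -6.83 to -4.58 in BL6 and -5.67 to -3.40 in BLKS. Because BL6 gives only a bound, Cox8b was at least 1.43-fold higher in BLKS on chow (adjusted p = 0.00038). This bound sets the BLKS mean against the lowest well-detected signal of each BL6 array. Where the probe's own signal was higher, that signal was used. The same calculation gave 1.23-fold with pioglitazone (adjusted p = 0.0015) and no fold above 1 on the high-fat diet. In both, the BLKS mean includes arrays not well above background, so neither result is a bound. Cox8a, its widespread counterpart, was at -0.14 and did not pass (adjusted p = 0.12).

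Markers of muscle and of brown fat, tissues known for these isoforms, were measured beside them. Of 9 muscle markers, Acta1 (0.85 ± 0.10) and Actn2 (1.93 ± 0.25) were kept and both were higher in BLKS. The summed linear level of the 9, relative to the 75th percentile, was 0.356 to 0.952 in BL6 and 0.737 to 1.68 in BLKS. Myh1, Myh4 and Mb, defining genes of muscle fibres, were not well above background in any of the 6 groups. Tnnt3, a troponin of skeletal muscle, was so on some array in all 3 BLKS groups and in no BL6 group. Myh6 was so only in BLKS on chow, Ckm only in BL6 with pioglitazone and Myl1 only in BL6 on the high-fat diet without it. Of 3 brown fat markers, Cidea was higher in BLKS by 2.98 ± 0.08. Ucp1 was well above background on 12 of 12 BLKS and 0 of 12 BL6 arrays, and Elovl3 in no group. The summed level of these 3 was 0.394 to 0.678 in BL6 and 3.2 to 5.30 in BLKS. Of 7 general adipocyte markers, 2 were kept, and 0 were higher and 1 lower in BLKS. Adipoq, Plin1 and Lep were not well above background in any group. The summed level of the 7 was 0.166 to 0.666 in BL6 and 0.163 to 0.282 in BLKS. The part of such other cells in the Cox6a2, Cox7a1 and Cox8b differences was not tested.

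Among the other complex IV genes, Cox5b was lower in BLKS on every array, from 4.37 to 4.74 against 4.92 to 5.30 in BL6 (adjusted p = 8.3e-08). Its second kept probe, which the files place on chromosome 15, was lower by a smaller margin (-0.17 ± 0.05, adjusted p = 0.0072). Cox6b1 (-0.25), Cox7b (-0.23), Cox7c (-0.18) and Cox4i1 (-0.12), structural subunits of the complex, also passed as lower. Cox5a was higher, at 0.17 ± 0.07 (adjusted p = 0.043). Cox4i2, the form linked to low oxygen, Cox6b2, known from testis, Cox6c and Cox7a2l, a factor in joining complexes, did not pass, at -0.04, -0.13, -0.03 and -0.0012.

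ATP synthase had 7 of 15 genes past the threshold, 6 lower and 1 higher in BLKS. Atp5e, the epsilon subunit, ran from 6.52 to 7.23 in BL6, with a median of 6.74, and from 5.83 to 6.54 in BLKS, with a median of 6.15. The ranges touched only at their ends, and the difference was -0.57 ± 0.08 (1.48-fold lower, adjusted p = 5.9e-06). The other lower genes, Atp5o (-0.32), Atp5j2 (-0.31), Atp5j (-0.29), Atp5k (-0.28) and Atp5h (-0.24), encode parts of the stalks and the membrane sector. Atp5d, the delta subunit, was higher at 0.22 ± 0.05 (adjusted p = 0.0012). The catalytic pair Atp5a1 and Atp5b stood at -0.02 and -0.07, and the c-ring genes Atp5g1, Atp5g2 and Atp5g3 at -0.14, -0.08 and 0.04, none of which passed. A second, dimmer Atp5g1 probe was higher in BLKS by 0.26 ± 0.06 (adjusted p = 0.00087), contrary to the brightest probe of that gene.

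**Figure D2:**
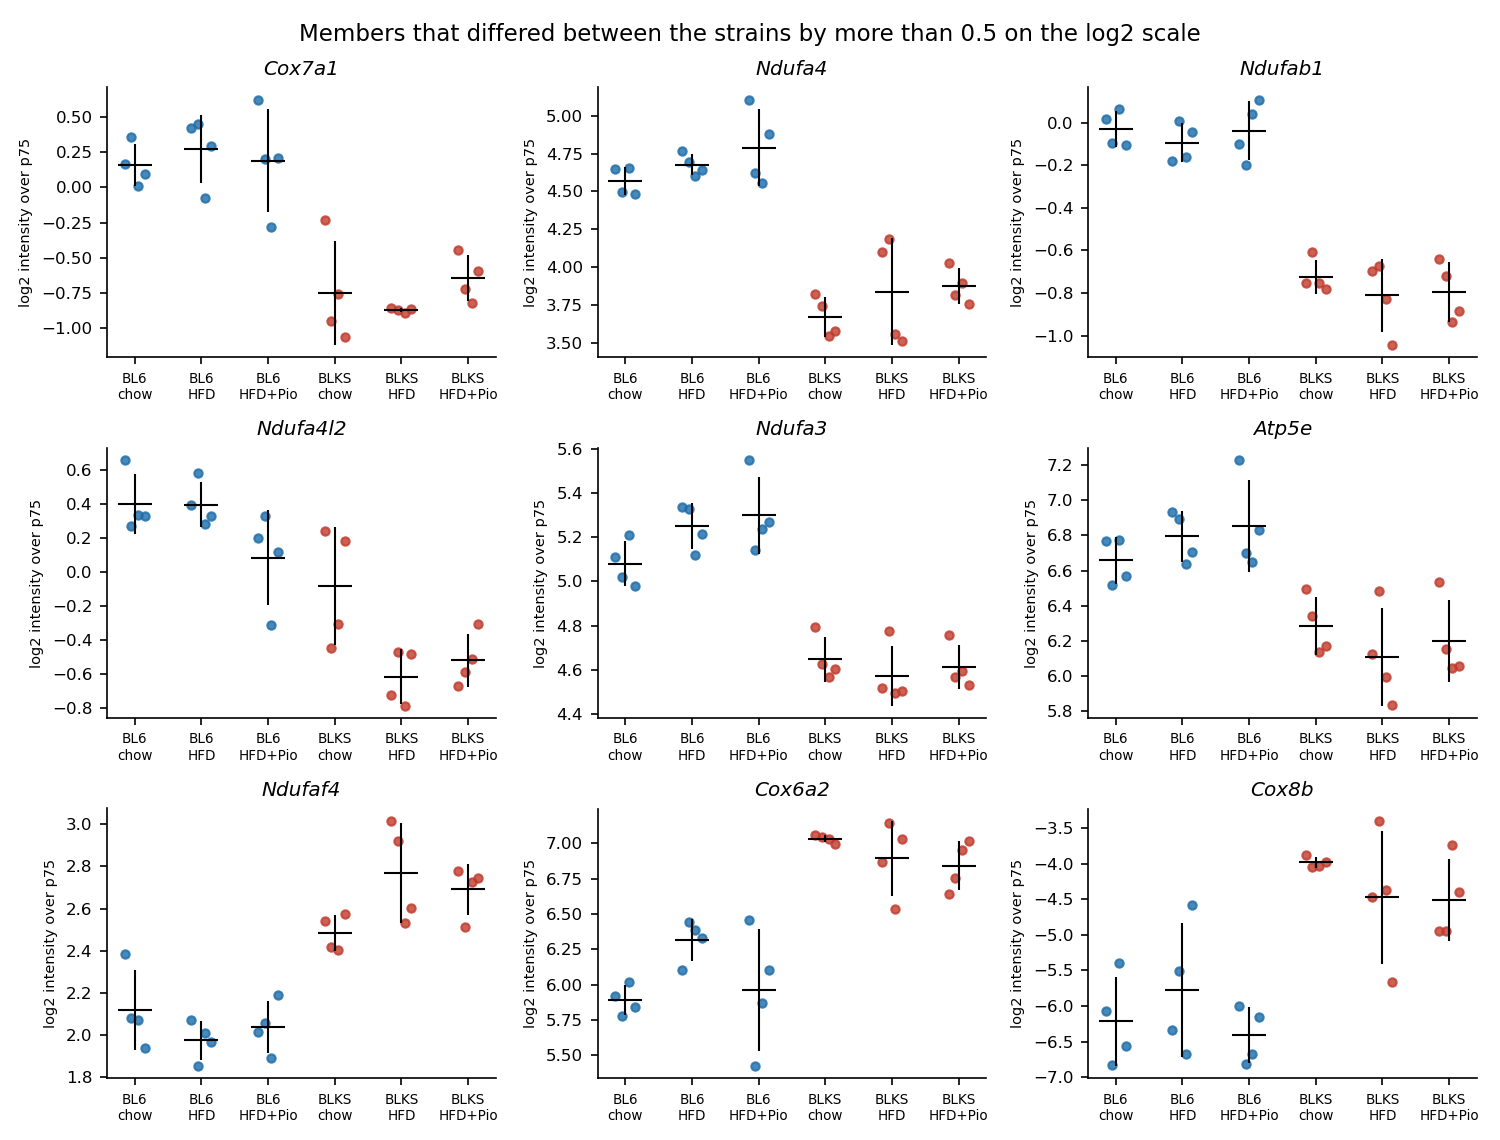
Log2 level (processed intensity relative to the array's 75th percentile, p75) on each of the 24 arrays for the 9 genes that differed between the strains by more than 0.5. Each point is 1 mouse, blue BL6 and red BLKS, black dashes are group means of 4 mice and bars the SD; Ndufa4, Ndufab1, Ndufa3, Ndufaf4 and Cox6a2 show no overlap between the strains, and each panel has its own axis range.

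Over all 12 arrays a strain, 6 genes (6.82% of 88) did not overlap between BL6 and BLKS, namely Cox5b, Cox6a2, Ndufa3, Ndufa4, Ndufab1 and Ndufaf4. The share over all genes was 19.4%. Called in each of the 3 diets were 12 genes (13.6%), against 31.03% of all genes: those 6 with Atp5e, Atp5o, Cox7a1, Cox8b, Ndufa4l2 and Ndufa7. Cox8b passed the detection filter through its BLKS arrays alone. Its calls on the high-fat diet and with pioglitazone come without a bound. On chow 17 genes passed, 5 higher and 12 lower (background 41.6% of all genes, with 20.6% higher and 21% lower). The high-fat diet gave 41, 5 higher and 36 lower (background 49.9%, with 23.3% higher and 26.6% lower), and the high-fat diet with pioglitazone 29, 3 higher and 26 lower (background 45.8%, with 23% higher and 22.8% lower). The split depended on the scaling of the arrays. On chow it was 4 higher and 42 lower after quantile normalization, 4 and 43 after normexp and quantile, and 5 and 7 in the authors' value table. The background in these, in that order, was 44.1%, 43.7% and 37.5% of all genes. The authors' value table gave 6 higher and 20 lower on the high-fat diet and 6 and 9 with pioglitazone (background 45.9% and 42.4%). With pioglitazone it moved the median of all genes from -0.04 to 0.07.

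Between groups on the same slides (BLKS on chow minus BL6 on the high-fat diet with pioglitazone, so that strain and diet differ together), 11 genes passed, 3 higher and 8 lower, with a background of 33.1% of all genes. Cox6a2 (1.07), Ndufaf4 (0.45) and Cox8b were the higher ones, and for Cox8b no size is given because this BL6 group was not well above background. Ndufa4 (-1.12), Cox7a1 (-0.94), Ndufab1 (-0.69), Ndufa3 (-0.65), Atp5e (-0.57), Cox5b (-0.48), Ndufaf1 (-0.47) and Ndufaf2 (-0.33) were lower. The Ndufa4l2 value was -0.17 ± 0.22 and did not pass (adjusted p = 0.59). When the 8 high-lymphocyte arrays were left out, the strain comparison over 3 diets called 47 genes, and when the 4 high-acinar arrays were left out, 40.

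**Figure D3:**
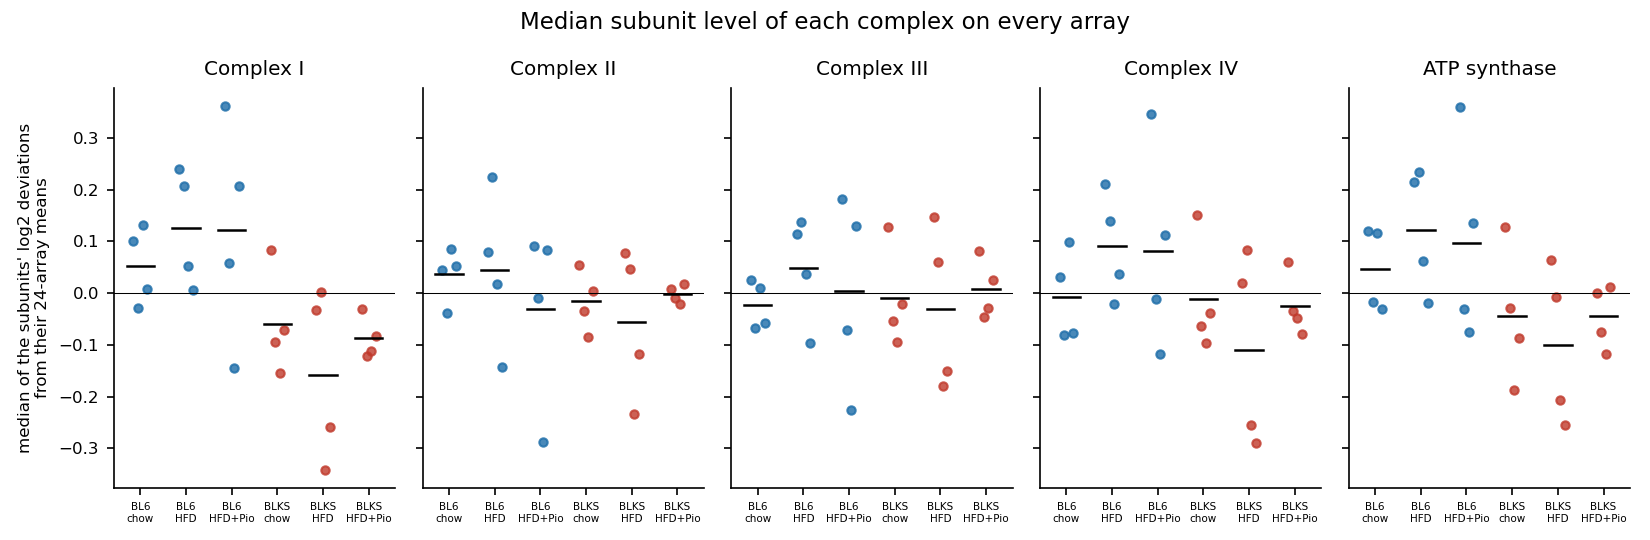
Median over the subunits of each complex of their log2 deviation from the gene's own mean over the 24 arrays, 1 point per mouse (blue BL6, red BLKS), with black lines at group means of 4. BL6 and BLKS points overlap in every complex, and in complex I the BLKS group means lie below 0 and the BL6 group means above it.

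The median deviation of the 81 structural genes on an array ran from -0.15 to 0.35 in BL6. In BLKS it ran from -0.27 to 0.10, and these ranges overlapped. The 2 extremes of BL6, at -0.15 and 0.35, both belonged to the group on the high-fat diet with pioglitazone, on the arrays of mice 3 and 1. The array of that mouse 3 was among those of high lymphocyte score, at 2.996. That of mouse 1 had the lowest 75th percentile, 217.9 intensity units. The lowest BLKS value belonged to mouse 3 on the high-fat diet, whose array was among those of high lymphocyte and of high acinar score. The highest, at 0.10, belonged to mouse 1 on chow, whose acinar score was the lowest of the 24, at -2.59. The part of these other cells in the shift of an array was not tested.

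The high-fat diet was compared with chow within each strain to ask whether diet alters these subunits. None of the 88 genes passed in BL6 or in BLKS by limma, and 2 genes in each strain had an unadjusted p below 0.05. Of all genes, 0.0435% passed in BL6 (0.0174% higher and 0.0261% lower) and 0.0784% in BLKS (0.0174% higher and 0.061% lower). In BL6 the median log2 difference was 0.07 and 75 of 88 estimates were positive, beside a median of -0.0011 over all genes. In BLKS it was -0.08 with 71 of 88 estimates negative, beside -0.02 over all genes. The BL6 median was 0.01 after quantile normalization, and with 1 mouse left out it ran from 0.020 (without mouse 1 on the high-fat diet) to 0.10. The BLKS median was -0.017, with 34 estimates positive, without mouse 3 on the high-fat diet and -0.026, with 33 positive, without mouse 1 on chow. The 12 acinar markers had a median log2 difference between the diets of 2.02 in BL6 and 2.72 in BLKS, and 0 of them passed. With the acinar score as a covariate the median of the 88 genes was 0.099 in BL6, with 79 estimates positive. In BLKS it was then -0.034, with 35 positive. The signs of the medians in both strains rest on shifts smaller than the spread of the array medians (pooled SD 0.13, over the 81 structural genes).

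The smallest p in BL6 was that of Atp5s, an ATP synthase coupling factor by name, at -0.33 ± 0.10 (adjusted p = 0.46), followed by Cox6a2 at 0.43 ± 0.16 (adjusted p = 0.71). Cox6a2 means were 5.89 on chow and 6.32 on the high-fat diet in BL6, with SDs of 0.10 and 0.15 (n = 4 each). In BLKS the smallest p was that of Ndufa4l2, which stood at 0.24, -0.45, -0.31 and 0.18 on chow and at -0.73, -0.47, -0.79 and -0.48 on the high-fat diet. All mice on the high-fat diet lay below all on chow, but the difference of -0.53 ± 0.16 did not pass over all genes (adjusted p = 0.22). Ndufa4l2 in BL6 differed between the diets by -0.0024 ± 0.16. Ndufaf4 on its brightest probe was next in BLKS, at 0.28 ± 0.11 (adjusted p = 0.40).

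Adding pioglitazone to the high-fat diet changed none of the 88 genes in either strain by limma, with 0.192% of all genes called in BL6 (0.1% higher and 0.0914% lower) and 0.00435% in BLKS. At an unadjusted p below 0.05 there were 3 genes in BL6 and 0 in BLKS. Uqcrc1, a core protein of complex III, had the smallest p in BL6. Its log2 level was 3.09, 3.36, 3.19 and 3.11 on the high-fat diet and 2.99, 3.03, 3.05 and 2.92 with the drug. All mice given the drug lay below all without it, and the difference of -0.19 ± 0.07 did not pass (adjusted p = 0.34). Ndufs1 (-0.19, adjusted p = 0.45) and Cox6a2 (-0.35, adjusted p = 0.46) followed. In BLKS the largest positive estimate was that of Cox7a1, at 0.22 ± 0.17. Ndufc1, with the smallest p among the positive ones, was at 0.15 ± 0.11 (adjusted p = 1). The median log2 difference was 0.0022 in BL6 and 0.06 in BLKS, where 74 of 88 estimates were positive. With 1 mouse left out the BL6 median ran from -0.080 (without mouse 1 given the drug) to 0.082 (without mouse 3), so its sign is not settled. The BLKS median was 0.013 and 0.016, with 60 and 58 estimates positive, without mouse 3 and mouse 4 on the high-fat diet. With the high-lymphocyte arrays left out, these medians were 0.12 and -0.0068.

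**Figure D4:**
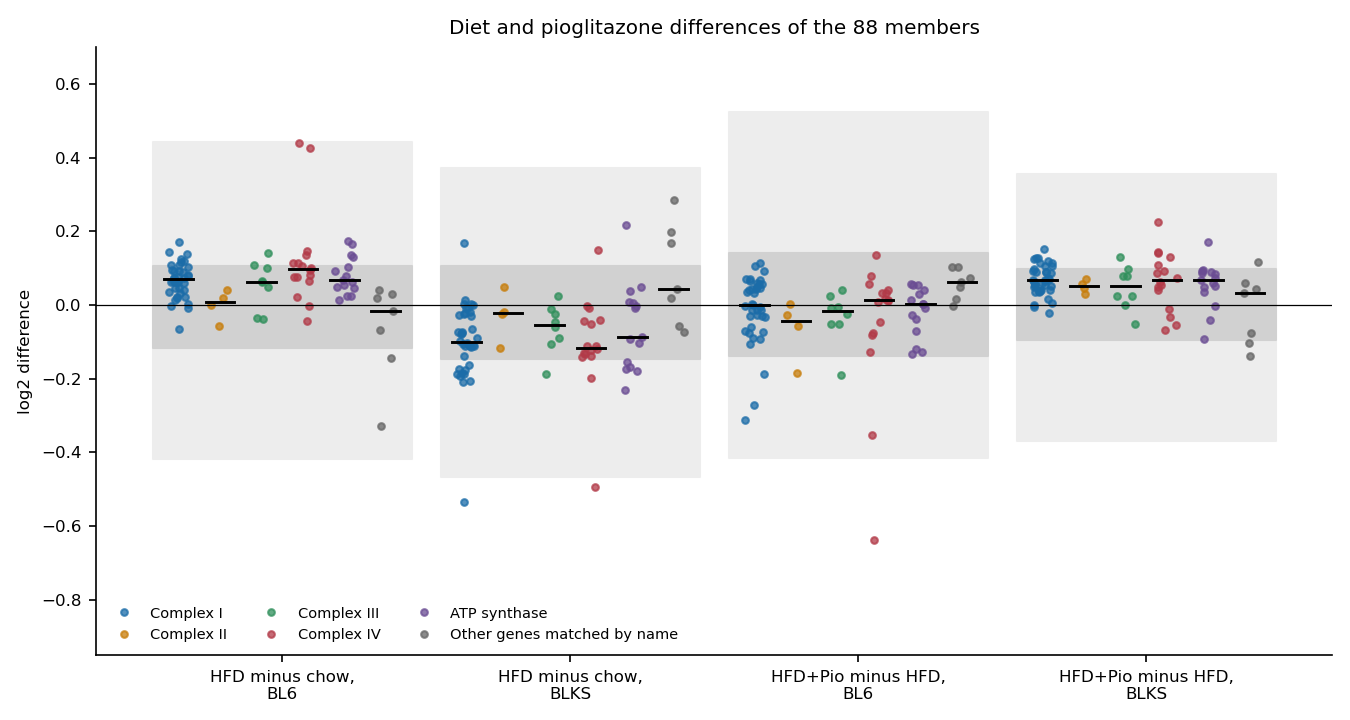
Log2 differences of the 88 genes for the high-fat diet (HFD) minus chow and for the high-fat diet with pioglitazone (HFD+Pio) minus the high-fat diet, in each strain, coloured by complex. Each point is 1 gene, black lines are medians per complex, dark grey spans the middle 50% and light grey the middle 90% of all genes; 0 of the 88 genes passed the test in any of these comparisons.

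Whether the strains differed in their response to diet or drug was tested with the difference of the differences. None of the 88 genes passed for the high-fat diet, where 0% of all genes did, or for pioglitazone, where 0.00871% did, and the unadjusted p was below 0.05 for 8 and 0 of the 88. For the high-fat diet (BLKS minus BL6) the median was -0.15, with 75 of 88 estimates negative, and over all genes it was -0.02. Of these estimates Ndufaf4 had the smallest p, at 0.43 ± 0.16 (adjusted p = 0.42). Next came Atp5g2, a c-ring gene, at -0.33 ± 0.12 (adjusted p = 0.43), Atp5s at 0.37 ± 0.14 (adjusted p = 0.44) and Cox6a2 at -0.56 ± 0.23 (adjusted p = 0.48). Under quantile normalization the median was -0.07, and without the arrays of high acinar score -0.06. It was -0.090 without BLKS mouse 3 on the high-fat diet and -0.092 without BLKS mouse 1 on chow. For pioglitazone the median was 0.07, and it turned to -0.13 when the high-lymphocyte arrays were left out. It was -0.0073 without BL6 mouse 3 given the drug.

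Genes that work with these subunits were taken from lists chosen by function. All 13 subunits encoded in the mitochondrial genome were measured, and 11 were lower and 0 higher in BLKS, with a median log2 difference of -0.25. Beside this and the following lists stands the share of all genes called, 64.7%, with 34.6% lower and 30.1% higher, and nothing particular to a list is read from its count. ND3 (-0.83 ± 0.08), ND4L (-0.60 ± 0.07) and ND4 (-0.45 ± 0.05), all subunits of complex I, had the smallest p-values, together with ND6 (-0.96 ± 0.17), also of complex I. Of 8 other proteins of the chain, 5 were lower and 0 higher. Among them were Etfb (-0.30), Etfdh (-0.23) and Etfa (-0.12), which feed electrons from fatty acid oxidation into the chain, and Cyc1 (-0.18), the cytochrome c1 of complex III. In these lists 0 genes passed for diet or drug by limma.

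Of 24 assembly factors, 11 were higher and 8 lower in BLKS, with a median of 0.08. Cox10, which makes the heme of complex IV, was higher by 1.32 ± 0.12 (adjusted p = 3.6e-09), and Ttc19, needed for complex III, by 0.82 ± 0.08. Lrpprc, which stabilises mitochondrial messenger RNA, differed by -0.70 ± 0.06, and Acad9, a complex I assembly factor, by -0.37 ± 0.04. Of 15 regulators of mitochondrial biogenesis, 10 were lower and 3 higher. Mterf, a mitochondrial transcription termination factor, was at -1.80 ± 0.07, ranging from 0.32 to 0.95 in BL6 and from -1.46 to -0.95 in BLKS. Polrmt, the mitochondrial RNA polymerase, was at -0.63 ± 0.05, and Esrra, a nuclear receptor that drives oxidative genes, at -0.55 ± 0.05. Nrf1, a transcription factor for respiratory subunits, was higher by 0.80 ± 0.06 (adjusted p = 1.7e-10). Of 18 citrate cycle and pyruvate dehydrogenase genes, 7 were lower and 4 higher. They included Pdhb (-0.96 ± 0.06) and Dlat (-0.30 ± 0.06), while Dld was higher at 0.38 ± 0.06.

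**Figure D5:**
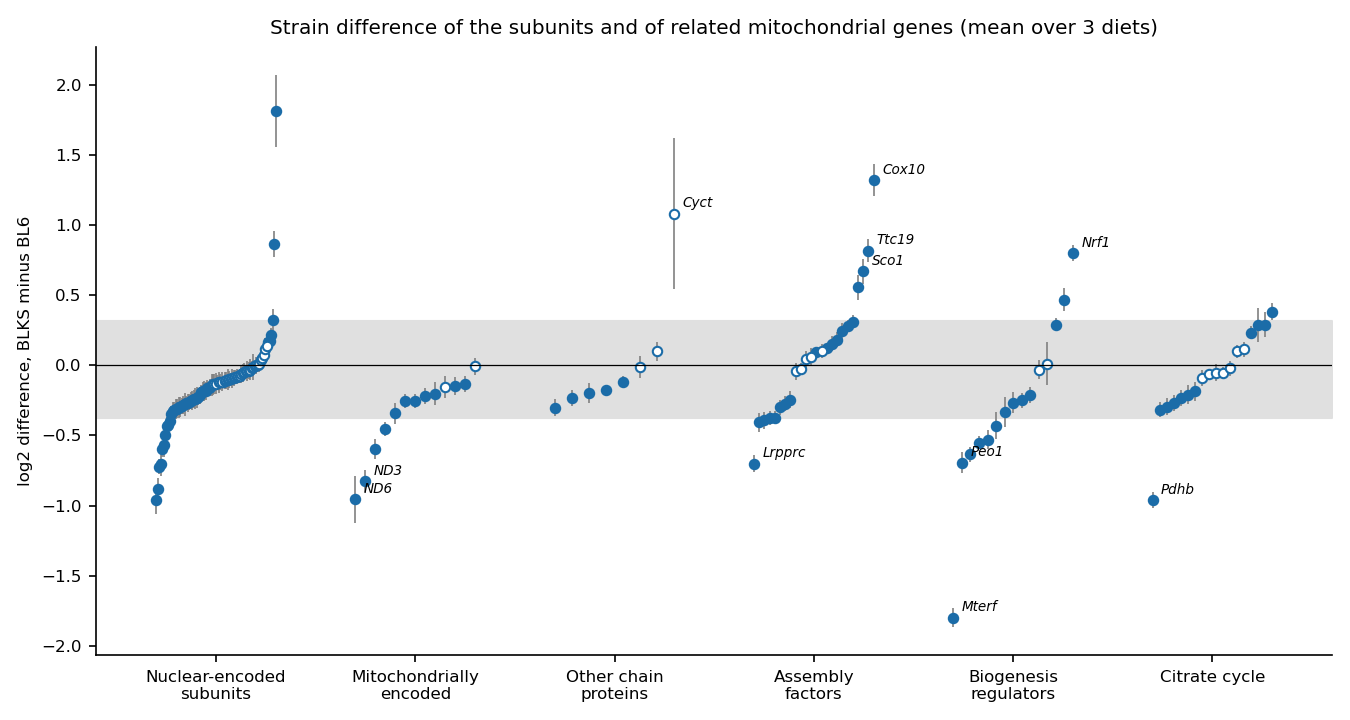
Log2 difference between the strains (BLKS minus BL6, mean over 3 diets) for the nuclear-encoded subunits and for 5 lists of related mitochondrial genes, each point 1 gene with its SE. Filled points passed an adjusted p of 0.05 and the grey band spans the middle 50% of all genes; the 13 mitochondrially encoded genes lie at or below 0, and assembly factors lie on both sides.

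Promoter windows of 250 bases before to 50 after the transcript start were taken from RefSeq (GRCm38.p6) and were found for 68 of the 83 structural genes. Motifs for factors known to act on such genes were searched on both strands, and in these windows no matches of different motifs overlapped. The NRF1 type, a palindrome whose letters are the first run of capitals in both sequences printed here, occurred in 5 of the 68 genes (7.35%), against 1.47% of 17492 coding genes. The YY1 type, AAGATGGCG, was found in 7 genes (10.3%, against 2.14%), the ETS type, CCGGAAG, in 16 (23.5%, against 12.9%) and the ERR type, TCAAGGTCA, in 2 (2.94%, against 0.377%). The SP1 type, GGGGCGGGG, and the CCAAT box were about as frequent as elsewhere, in 16.2% against 17.3% and in 42.6% against 42.3%. A pair of windows with the NRF1 type is shown, that of Cox6a1, which is one of the 5 genes, and that of Ndufaf4, which as an assembly factor is outside the 68. Cox6a1, at chr5:115348909-115349208 on the minus strand, holds the NRF1 type and, nearer the start, the ETS type on the other strand. Ndufaf4, at chr4:24897833-24898132 on the plus strand, holds the NRF1 type. Capitals mark matches of the NRF1, ETS and YY1 types, and the Cox6a1 window also holds a CCAAT box, left in lower case. Matches describe the letters and are not evidence of binding.
Cox6a1: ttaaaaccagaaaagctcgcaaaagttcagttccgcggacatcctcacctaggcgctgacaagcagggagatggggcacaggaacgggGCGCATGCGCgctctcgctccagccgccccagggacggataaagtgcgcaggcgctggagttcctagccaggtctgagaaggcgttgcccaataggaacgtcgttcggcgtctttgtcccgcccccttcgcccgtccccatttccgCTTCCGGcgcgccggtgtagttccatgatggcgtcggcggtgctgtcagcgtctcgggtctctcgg
Ndufaf4: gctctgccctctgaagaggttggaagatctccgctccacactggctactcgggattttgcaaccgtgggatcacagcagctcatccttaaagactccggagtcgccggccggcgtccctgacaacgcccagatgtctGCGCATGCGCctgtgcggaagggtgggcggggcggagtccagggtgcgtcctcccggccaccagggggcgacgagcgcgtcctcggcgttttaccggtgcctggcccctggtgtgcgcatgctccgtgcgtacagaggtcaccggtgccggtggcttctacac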

How the data were processed

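Islets came from collagenase-perfused pancreas, and amplified RNA carried the Cy3 dye, per the labels' protocols. Per the file headers, Agilent Feature Extraction 10.7.3.1 gave each spot a processed intensity, which was background-subtracted but not scaled between arrays. The deposited value table of the authors holds a linear ratio, each array's processed intensity over its median, as its values show. Log2 processed intensity was averaged over spots of a probe and set relative to the array's 75th percentile. Outlier-flagged spots were dropped, at a cost of 55 probes; 0 spots were saturated. Probes well above background on at least 4 of 24 arrays were kept (32750), and the brightest stood for its gene name (22968 genes).

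With limma 3.58.1 in R 4.3.3, lmFit and eBayes estimated the means of 6 groups from 24 arrays together. Benjamini-Hochberg adjustment ran over all genes, with a threshold of 0.05. Errors after ± are standard errors of log2 differences unless named SD. The fit was tested on simulated data. The number of arrays limits the precision.

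The genes and the related lists were chosen with earlier results of these data known. Genes to be named were picked per comparison: up to 12 called genes in each direction, or the 3 of smallest p where fewer than 3 passed. Added were a fixed set of subunits, the 3 genes of widest spread, and up to 4 called genes per list and comparison. Not every gene so picked is given with its values above, for example Cox4nb, which passed as higher in BLKS over the 3 diets. Some other called subunits are named as well, after their values were seen, but not all of them. Symbols are those of the array design, and 86 of 90 genes matched a current symbol by accession. Mouse numbers did not pair the groups: 28 of 60 same-number pairs had deviations correlating above 0.1, with a range of -0.64 to 0.72. Positions within exons or untranslated regions were not used here. Some withheld genes are counted in the totals but not reported here by name. Alternatives covered scaling, detection filter, probe choice, slide and replicate blocks, marker scores as covariates and arrays left out.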

Additional observations from a re-analysis of the deposited data

Results flagged for a closer look

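In sets of 4 arrays, the gap of 1 array to its nearest neighbour was set against the range of the set. This was done for 9 genes, for the median of the 81 structural genes and for the acinar and lymphocyte marker scores. Of 72 sets, 5 held an array farther out than Dixon's critical value for 4 samples, and chance flags about 1 in 20 groups. On the high-fat diet, Ndufa3 of BLKS mouse 2 had a log2 level of 4.78 on the brightest probe while the other 3 lay between 4.49 and 4.52. Ndufab1 of BLKS mouse 2 on chow stood at -0.61, above the others at -0.78 to -0.75. The lymphocyte marker score was high in 1 array of 3 groups. It was 0.045 in BL6 mouse 3 on chow, against -2.75 to -2.50 in the others, and 1.93 in BL6 mouse 4 on the high-fat diet, against -2.69 to -2.46. In BLKS mouse 1 on the high-fat diet with pioglitazone it was 0.61, against -2.80 to -2.24.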

How the results depend on the processing

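The counts of genes passing for diet, for pioglitazone and for the strain's effect on either were 0 under each alternative run. The strain count over 3 diets (49) lay between 39 and 66 under the alternatives on all arrays and between 45 and 55 with 1 mouse left out. Quantile normalization and normexp with quantile both gave 66, against 66.1% and 65.3% of all genes. The authors' value table gave 39, against 61.7%. With no detection filter the count was 46 of 90 genes, against 46.9% of all genes. It was 48 with probes well above background on all 24 arrays, 45 with averaged probes and 49 with all kept probes fitted. Slide as a random block gave 49, and the acinar and lymphocyte scores as covariates 49 and 54. The random block had an estimated correlation within slides of -0.012, so that fit was nearly the main one. It cannot separate strain from slide. Slide could be held fixed only for diet in BL6 (slide 1) and pioglitazone in BLKS (slide 3), by fitting the groups of that slide alone. For these comparisons that is the same fit as fitting only the groups compared, and not a separate check of slide. A different comparison, BLKS on chow minus BL6 with pioglitazone within slides 2 and 4, gave 11. With 1 mouse left out the counts ranged from 11 to 17 on chow (11 without BLKS mouse 2), from 30 to 44 on the high-fat diet and from 19 to 40 with pioglitazone (19 without BL6 mouse 1). Quantile normalization gave 46 on chow and 46 with pioglitazone, and normexp with quantile 47 and 44. The authors' value table gave 26 on the high-fat diet and 15 with pioglitazone. Fitting only the groups compared, with fewer samples, gave 24 and 15. Leaving out arrays, chosen after seeing the data, gave 10 on chow without the 8 of high lymphocyte score, and 25 on the high-fat diet and 12 with pioglitazone without the 4 of high acinar score. The cause of the shifts with scaling was not tested. With the mouse number as a replicate block the strain counts were 51 over 3 diets, 20 on chow, 48 on the high-fat diet and 35 with pioglitazone, and the other counts stayed at 0; the numbers are not a pairing. Averaging all probes of a gene, the sign turned for Ndufa3 on chow (0.10), Ndufaf4 on chow (-0.13) and Ndufv3 on the high-fat diet (0.073), which have probes of opposite sign. Over the 3 diets, averaging ended the strain calls of Ndufa3 (-0.0013, adjusted p = 0.99) and Ndufaf4 (0.086, adjusted p = 0.25). For Uqcrc2, which was not called, the strain difference was -0.089 with quantile and -0.093 with normexp and quantile, and passed under both.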

Other observations

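Of the 9 genes with the larger strain differences, 5 lie on chromosome 7 (Ndufa3, Cox7a1, Ndufab1, Cox6a2 and Cox8b), where 10 of the 88 genes lie. On that chromosome 31.7% of 1702 genes were called with a size over 0.5, beside 34.8% of all genes. This grouping was noticed after the values were seen and was not tested, and it counts Cox8b, which passed the detection filter through BLKS alone. Of the genes with several probes, Ndufv3 differed in sign too: the brightest probe was at -0.28 ± 0.08 between the strains and a dimmer one at 0.47 ± 0.08.

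Markers of other islet and blood cells were also compared between the strains over the 3 diets. Of all genes, 64.7% passed in this comparison, 30.1% higher and 34.6% lower, and nothing particular to a cell type is read from the counts. Of 10 macrophage markers, 7 were lower and 1 higher in BLKS, with a median log2 difference of -0.69. Of 5 alpha-cell markers 4 were lower, with a median of -0.96, and all 3 erythrocyte markers were lower, with a median of -1.03. Of 8 beta-cell markers 3 were lower, with a median of -0.16, and of 12 acinar markers 0 passed, in either direction, by limma. Of 11 lymphocyte markers 1 was lower, of 6 endothelial markers 2 were higher and 2 lower, and of 7 stromal markers 1 was higher and 1 lower.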
